A study of Mus musculus with 12 samples.

Results

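Control siRNA libraries of the rRNA precursor were compared between a mouse hepatoma cell line and mouse liver, with no knockdown involved. Of the 12 libraries of the series, the 6 that received luciferase control siRNA were used: 3 of Hepa1c1c7 cells, an established mouse hepatoma line, and 3 of livers of FVB/N mice. The cells had been exposed to the control siRNA at 10 uM for 3 days. The mice, 6 to 8 weeks old, had it injected into a tail vein in a lipid nanoparticle (LNP) formulation, with a dose of 0.5 mg/kg and a duration of 13 days. Cell RNA was purified with a kit for nuclear RNA, and liver RNA with phenol and chloroform from whole frozen, ground tissue. Cell line against tissue, nuclear against whole RNA, and the dose, route and time of the siRNA therefore differ at once between the groups and cannot be told apart. The labels do not say whether the 3 libraries of a group came from separate cultures or animals, so p-values measure the spread between these libraries, which may be technical.

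RNA polymerase I makes one long precursor that holds the 18S, 5.8S and 28S rRNAs and 4 spacers: the 5′ external transcribed spacer (5′ETS), internal transcribed spacers 1 and 2 (ITS1, ITS2), and at the far end the 3′ETS. Processing starts in the nucleolus, where the spacers are cut out and degraded, while finished rRNA is long-lived and accumulates in cytoplasmic ribosomes. The last cut at the 3′ end of 18S is made in the cytoplasm. In mouse, an early cut within the 5′ETS, the primary cleavage site, separates a short leader from the rest. Reads over a spacer thus come from RNA that is not yet fully processed or not yet degraded, and reads over 18S, 5.8S and 28S from both precursor and finished rRNA.

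Depth, the number of reads over a position, was deposited for 13400 positions. Its mean per position was 10462 to 13375 reads in the cell libraries and 26971 to 44498 in the liver libraries. Steps in the profile of these 6 libraries gave 18S the positions 4006 to 5882, counted from the start of the reference. They gave 5.8S 6877 to 7029, and 28S began at 8120 and ended at 12837. An inner step of the 5′ETS, at 651, divided it into a leader of 650 nt and a rest of 3355 nt. A narrow spike of depth at 414 to 450 lay inside the leader. The file holds depth along 1 reference and no other transcript, so neither the nuclear fraction nor the liver could be checked against marker genes.

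The precursor was far deeper in the nuclear RNA of the cells than in liver, at every spacer. Spacers supplied 2.60%, 3.70% and 3.18% of summed depth in the cell libraries and 0.114%, 0.124% and 0.0994% in the liver libraries, a 27.9-fold difference between geometric means. The 9 pairs of a cell with a liver library gave folds of 21.0 to 37.2. Mature rRNA was the bulk of the reads in both: even in nuclear RNA, 96.3% to 97.4% of summed depth lay over 18S, 5.8S and 28S. A share of summed depth also depends on the mature rRNA, so less precursor and more mature rRNA in the liver RNA cannot be told apart. In these bulk libraries, neither can fewer cells with precursor and less precursor per cell.

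**Figure D1:**
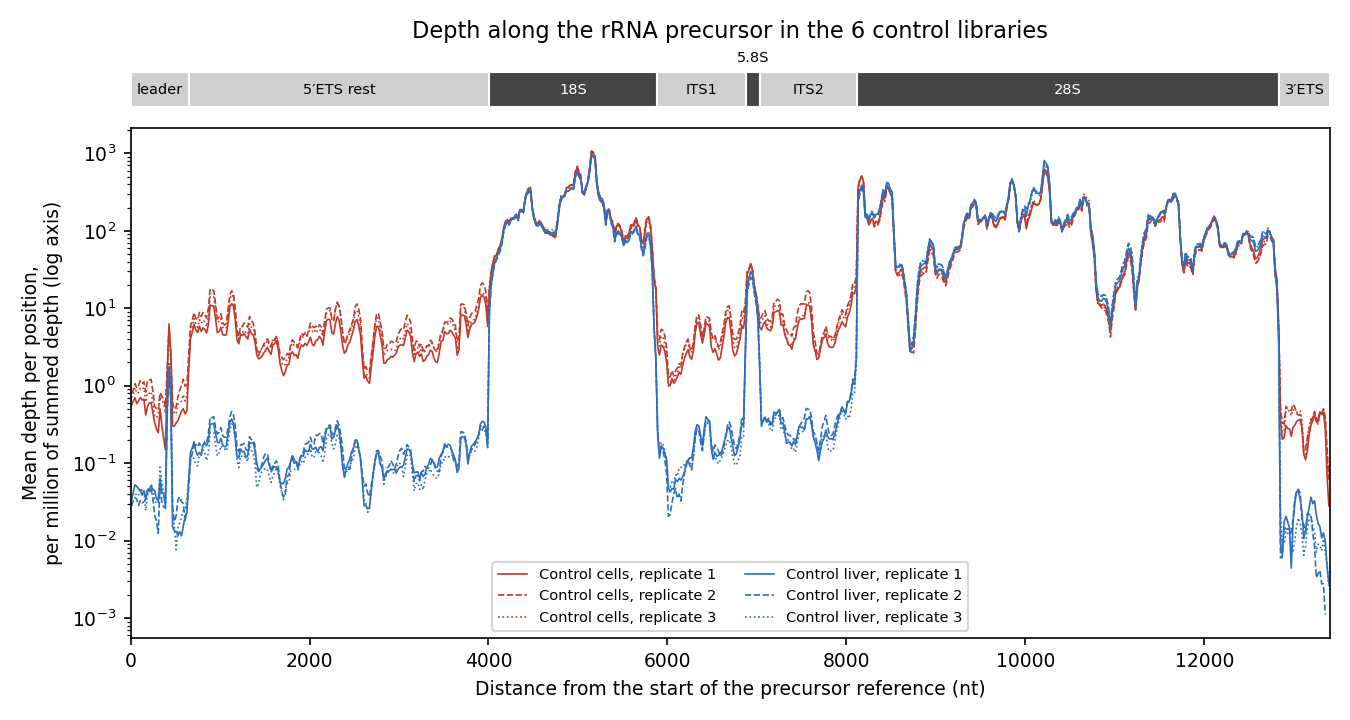
Mean depth per position in 20-nt windows, scaled to the summed depth of the library (log axis), against distance from the start of the precursor reference, with 1 line per library and the regions drawn above. Cells (red) and liver (blue) lie close over most of 18S and 28S, but not at the end of 18S or the start of 28S. They lie apart over each spacer. All spacers hold 2.60% to 3.70% of summed depth in cells and 0.0994% to 0.124% in liver.

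The 5′ETS after the inner step held 57.9% to 59.2% of spacer depth in cells and 40.6% to 43.4% in liver, and showed the widest gap of the 5 spacer segments. This stretch is removed on the way to 18S. It took 1.50%, 2.17% and 1.88% of summed depth in cells and 0.0485%, 0.0538% and 0.0403% in liver. The lowest cell library thus lay 27.96-fold above the highest liver library, and the geometric means differed 38.8-fold. Relative to the neighbouring 18S, the whole 5′ETS differed by 4.98 ± 0.18 (SE, log2; n = 3 against 3; limma adjusted p = 8.9e-09).

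The leader before the inner step differed less, and a narrow spike held much of its depth. The leader took 0.0479%, 0.0709% and 0.0577% of summed depth in cells and 0.00782%, 0.00755% and 0.00892% in liver, a 7.20-fold difference. Over the 37 nt of the spike, mean depth was 756, 887 and 767 reads in cells and 733, 543 and 1071 in liver. Scaled to summed depth, the spike was 3.06-fold deeper in cells, against 18.5-fold for the remainder of the leader. In each liver library the deepest position of that remainder was 451, next to the spike. Depth there was 102, 73 and 173 reads against means of 16.6, 11.7 and 22.1, so the remainder may still hold depth of the spike. The spike made up 41.6%, 25.8% and 28.7% of leader depth in the cell libraries and 72.8%, 73.7% and 74.5% in the liver libraries, so the groups do not overlap. Against the 100 nt before it and 100 nt that begin 10 nt after it, the spike stood 17.2, 7.52 and 8.15 times as deep in cells and 52.9, 45.4 and 50.1 times in liver. The handling of multiply mapped reads is not given, so whether the reads of the spike come from the precursor could not be checked.

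The leader, spike included, was 0.164, 0.169 and 0.159 times as deep as the rest of the 5′ETS in cells and 0.832, 0.724 and 1.14 times in liver. The log2 difference of cells minus liver was -2.43 ± 0.20 (SE; limma adjusted p = 1.6e-07). Without the spike it was -1.07 (limma adjusted p = 0.00017), in the same direction, though the liver depth next to the spike was kept. With median in place of mean depths, it was -1.01 (limma adjusted p = 0.0005).

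ITS1, which is cut to part the small from the large subunit precursor, took 0.346%, 0.484% and 0.425% of summed depth in cells and 0.0175%, 0.0174% and 0.0153% in liver. The geometric means differed 24.8-fold, and relative to 18S the difference was 4.52 ± 0.15 (SE, log2; limma adjusted p = 8.9e-09).

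ITS2, which lies between 5.8S and 28S, had the highest mean depth per position of the spacers in each of the 6 libraries. It stood at 5.16%, 7.45% and 5.97% of 28S depth in cells and 0.272%, 0.303% and 0.236% in liver. Its share of summed depth differed 20.6-fold, and relative to 28S the difference was 4.51 ± 0.19 (SE, log2; limma adjusted p = 1.1e-08).

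The 3′ETS, the spacer after 28S, was the shallowest. Its mean depth was 39.9, 67.5 and 62.0 reads per position in cells and 9.28, 5.37 and 7.02 in liver. Depth was 0 at 56 of its 563 positions in liver replicate 2 and at 7 in liver replicate 3. Of these, 52 and 7 were empty cells that were read as 0. The share of summed depth differed 22.5-fold, and the pairs of libraries ranged from 14.6-fold to 32.0-fold. Relative to 28S the difference was 4.64 ± 0.25 (SE, log2; limma adjusted p = 2.3e-08).

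**Figure D2:**
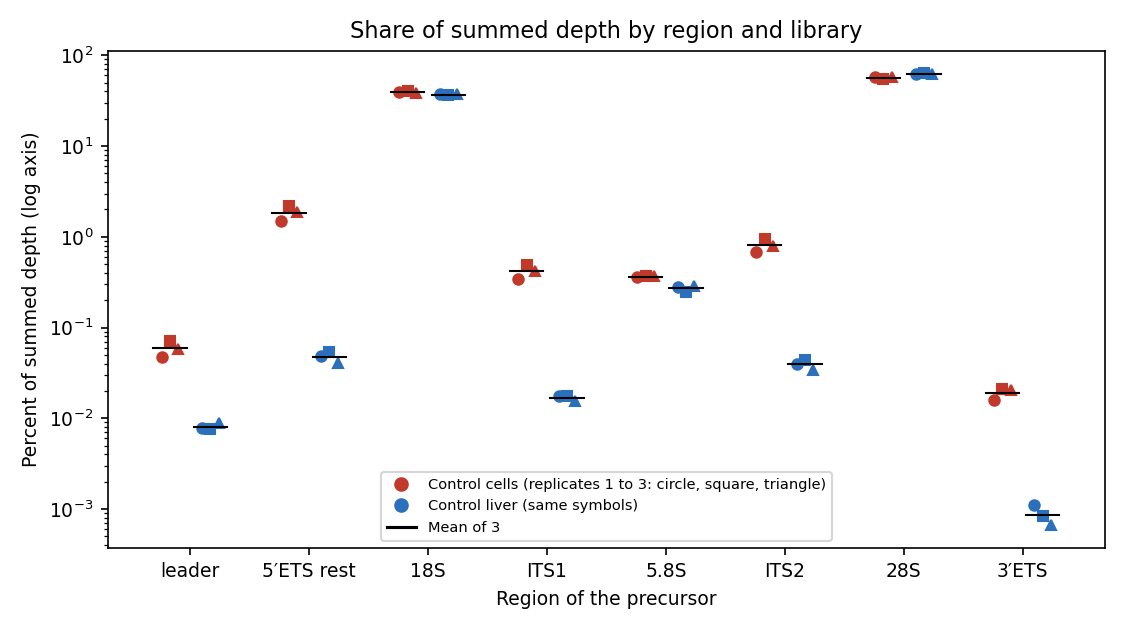
Percent of summed depth (log axis) in each region of the precursor, with 1 point per library and a bar at the mean of 3 libraries. The groups lie closest in 18S and 28S, and farthest apart in the rest of the 5′ETS, at 1.50% to 2.17% in cells and 0.0403% to 0.0538% in liver.

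The gap between cells and liver was not the same for each spacer. Folds of the share of summed depth ran in the order 5′ETS rest (38.8), ITS1 (24.8), 3′ETS (22.5), ITS2 (20.6) and leader (7.20). Beside the leader against the rest of the 5′ETS, 3 pairs of spacers were tested by their ratio within a library, which does not depend on the level of mature rRNA. Other pairs were not tested. The whole 5′ETS, leader and spike included (34.1-fold), was 1.11, 1.15 and 1.13 times as deep as ITS1 in cells and 0.797, 0.875 and 0.797 times in liver, a log2 difference of 0.46 ± 0.05 (SE; limma adjusted p = 3.1e-05). ITS1 was 0.554, 0.558 and 0.588 times as deep as ITS2 in cells and 0.489, 0.431 and 0.494 times in liver, a difference of 0.27 ± 0.07 (SE; limma adjusted p = 0.0086). The ratio of the 3′ETS to ITS2 did not differ beyond the spread of the libraries, at 0.13 ± 0.19 (SE, limma adjusted p = 0.49). The difference stayed at 0.028 to 0.31 with 1 library left out. With 10 reads added to each mean it was -0.84. Those 10 reads exceed each liver mean of the 3′ETS (5.37 to 9.28 reads), so that sign cannot be read. As shares of spacer depth alone, the 5′ETS held 59.7% to 61.0% in cells and 49.3% to 49.6% in liver, and ITS2 24.98% to 26.3% and 34.3% to 35.8%.

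Within single spacers, the balance between 5′ and 3′ parts of equal length differed in the rest of the 5′ETS and in ITS2. In ITS2, the 5′ part was 0.985, 1.04 and 0.931 times as deep as the 3′ part in cells and 0.762, 0.738 and 0.843 times in liver (log2 difference 0.34 ± 0.07, SE; limma adjusted p = 0.0013). In the rest of the 5′ETS, the 5′ part was 1.05, 1.05 and 1.09 times as deep in cells and 1.25, 1.40 and 1.146 times in liver (-0.25 ± 0.09, SE; limma adjusted p = 0.0086). For ITS1 the ratio was 0.606, 0.582 and 0.584 in cells and 0.541, 0.433 and 0.699 in liver, whose libraries surround those of the cells. The difference of 0.11 ± 0.20 (SE; limma adjusted p = 0.49) turned to -0.06 without liver replicate 2 and grew to 0.29 (limma adjusted p = 0.002) without liver replicate 3.

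Over 16 ratios between regions, limma called 12 (75%), and the groups did not overlap in 13 (81.2%). The exact two-sided permutation test gave p = 0.1 for each of those 13, the smallest that 3 libraries against 3 allow, so 0 of 16 ratios could pass it, adjusted or not. limma borrows its estimate of spread from all ratios or bins of a fit, and its p-values are smaller than 3 libraries a group warrant by themselves.

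Along the whole precursor, limma called 114 bins of 100 nt (85.1% of those tested) with libraries scaled to summed depth, 78 (58.2%) deeper in cells and 36 (26.9%) deeper in liver. All 64 bins that lie wholly inside a spacer were called deeper in cells. No bin was left out for low depth, but 6 of these 64 had a scaled liver mean under 10 reads. Median differences on the log2(depth + 1) scale were 5.18 in the 5′ETS, 4.66 in ITS1, 4.25 in ITS2 and 4.62 in the 3′ETS. The 5 widest gaps all lay in the rest of the 5′ETS, led by 3901 to 4000, the last full bin before 18S, at 5.68 ± 0.18 (limma SE), and 2701 to 2800 at 5.62 ± 0.23. The narrowest spacer gap was 1.78, in the bin at 401 to 500 that holds the spike. Of the bins wholly inside 28S, 35 of 46 were called deeper in liver and 0 deeper in cells. Wholly inside 18S, 7 of 17 were deeper in cells and 1 in liver. The 6 bins across an edge of a mature region were all called deeper in cells. Among them were 5801 to 5900 at the end of 18S (1.06 ± 0.06, limma SE) and 8101 to 8200 at the start of 28S (0.50 ± 0.04). The calls on mature bins depend on the scaling. Under a median-of-ratios scaling, which moved the median of all bins by -0.83, 67 bins were deeper in cells and 67 in liver.

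**Figure D3:**
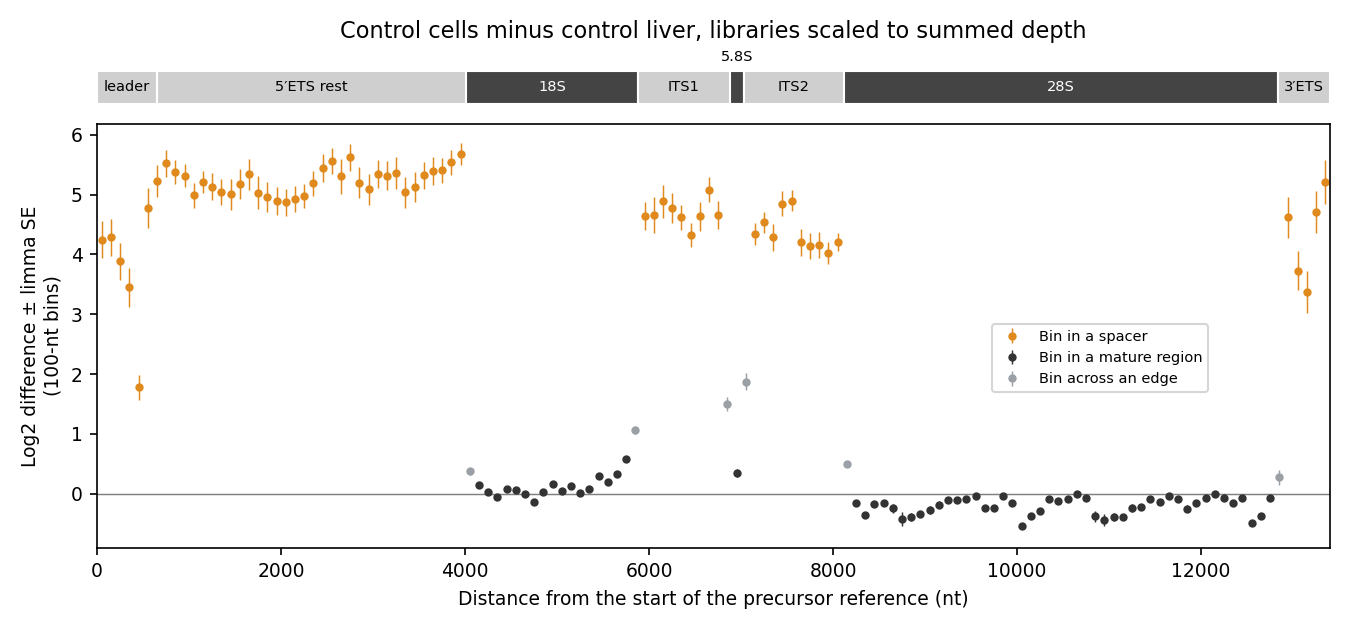
Log2 difference of cells minus liver in bins of 100 nt with libraries scaled to summed depth, against distance from the start of the precursor reference; bars are limma standard errors, n = 3 libraries per group. Spacer bins lie between 1.78 and 5.68, and bins inside mature regions between -0.54 and 0.58.

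The shape of the spacer profile differed between the groups once each library was scaled to its own spacer depth. Of 64 spacer bins, limma called 41 (64.1%), 27 (42.2%) relatively deeper in cells and 14 (21.9%) relatively deeper in liver. Under median-of-ratios scaling, which moved the median by -0.20, these were 17 and 19. The 5′ETS had 26 of 40 bins deeper in cells and 3 in liver, whereas ITS2 had 0 of 10 deeper in cells and 8 in liver. ITS1 had 1 of 9 called in each direction, and the 3′ETS 2 of 5 deeper in liver.

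The bins with the largest relative excess in cells were those at 3901 to 4000 (0.89 ± 0.09, limma SE, log2), 2701 to 2800 (0.86 ± 0.10), 2501 to 2600 (0.79 ± 0.09), 3801 to 3900 (0.76 ± 0.09) and 701 to 800 (0.75 ± 0.09), all in the rest of the 5′ETS. Scaled to spacer depth, the first of these read 1322, 1343 and 1191 in cells and 738, 624 and 716 in liver. The largest relative excess in liver was at 401 to 500, the bin of the spike, with 243, 172 and 179 in cells and 1480, 1351 and 1999 in liver (-3.01 ± 0.14, limma SE). Its difference was -1.16 with the spike left out. Position 451, next to the spike, was kept and was then the deepest of the leader in each liver library, so this value may still hold depth of the spike. Next came 301 to 400 (-1.24 ± 0.28), 13101 to 13200 (-1.18 ± 0.38), 13001 to 13100 (-0.89 ± 0.31) and 201 to 300 (-0.80 ± 0.23). The 2 bins of the 3′ETS among these rest on few liver reads. Both calls were lost without cell replicate 2 (-1.08 and -0.81, limma adjusted p = 0.06 and 0.054), and that of 13001 to 13100 also without liver replicate 1 (-0.72, limma adjusted p = 0.077).

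**Figure D4:**
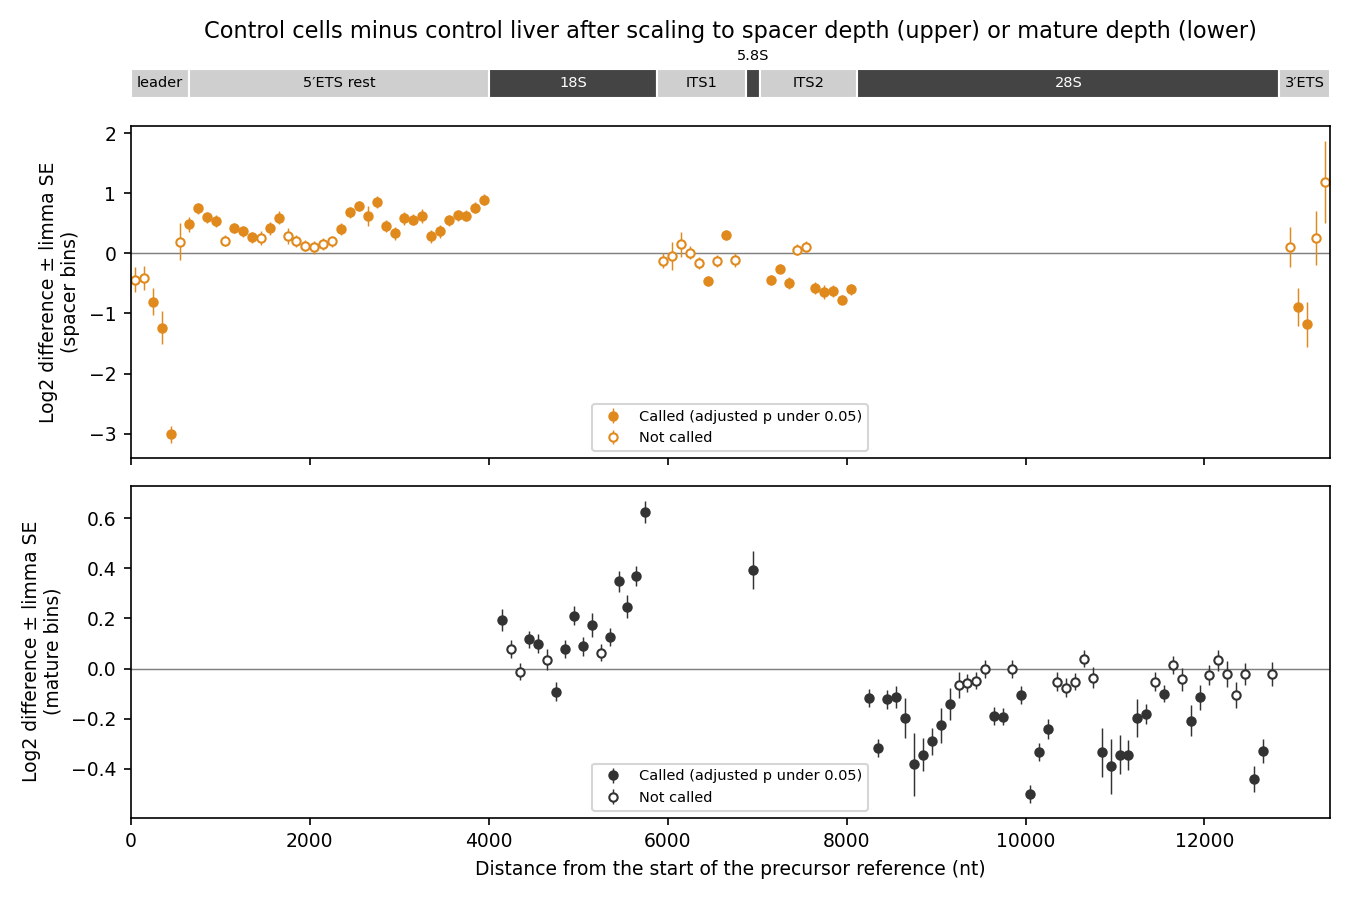
Log2 difference of cells minus liver in 100-nt bins, with libraries scaled to spacer depth (upper panel, spacer bins) or to the depth of 18S, 5.8S and 28S (lower panel, mature bins); filled points were called, open ones were not, bars are limma standard errors and n = 3 libraries per group. In the upper panel the bin of the spike lies lowest, at -3.01, and in the lower panel the 18S bin at 5701 to 5800 lies highest, at 0.62.

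Mature rRNAs were also balanced differently. The 18S rRNA of the small subunit was 1.74, 1.84 and 1.70 times as deep as 28S, the main rRNA of the large subunit, in cells and 1.49, 1.44 and 1.498 times in liver (log2 difference 0.25 ± 0.04, SE; limma adjusted p = 0.00041). The difference was 0.28 once each library's mean spacer depth was subtracted from its mature regions. The short 5.8S rRNA, which pairs with 28S in the large subunit, was 0.193, 0.205 and 0.196 times as deep as 28S in cells and 0.139, 0.119 and 0.141 times in liver (0.58 ± 0.08, SE; limma adjusted p = 0.00091). After the subtraction 0.33 of this remained (limma adjusted p = 0.021). The subtracted mean was lower than the spacer depth next to 5.8S in each library. In cells, the 25 nt before 5.8S read 793, 1556 and 1266 against means of 547, 997 and 818. The 0.33 is therefore not free of precursor depth. Depth per position is not a molar amount of rRNA.

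With libraries scaled to mature depth, the largest excess in cells among bins wholly inside a mature region lay toward the 3′ end of 18S. limma called 41 of 64 mature bins (64.1%), 13 (20.3%) deeper in cells and 28 (43.8%) in liver. Scaled by median of ratios, 18 were deeper in cells and 19 in liver. Without liver replicate 2 the counts were 8 and 19. By region, 18S had 12 of 17 bins deeper in cells and 1 in liver, and 28S 0 of 46 deeper in cells and 27 in liver. Bins across an edge, such as the one at the start of 28S, were not part of this fit. The bin at 5701 to 5800 of 18S read 35363, 36606 and 32480 in cells and 23280, 21546 and 22856 in liver, a log2 difference of 0.62 ± 0.04 (limma SE). The 3 bins before it had 0.37 ± 0.04 (5601 to 5700), 0.25 ± 0.05 (5501 to 5600) and 0.35 ± 0.04 (5401 to 5500). With spacer depth subtracted, the bin at 5701 to 5800 kept a difference of 0.61. The 1 full bin of 5.8S, at 6901 to 7000, differed by 0.39 ± 0.08 (limma SE), a call that was lost with that subtraction (0.17, limma adjusted p = 0.16).

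In 28S the widest gap was at 10001 to 10100, which read 53824, 58027 and 60277 in cells and 80611, 84698 and 78016 in liver (-0.50 ± 0.03, limma SE, log2). It was followed by 12501 to 12600 (-0.44 ± 0.05). The other 3 of the 5 widest were 10901 to 11000 (-0.39 ± 0.11), 8701 to 8800 (-0.38 ± 0.12) and 11101 to 11200 (-0.34 ± 0.06). At 8701 to 8800 the scaled depth was 1954, 1629 and 1853 in cells and 2130, 2452 and 2498 in liver, and that call was lost without liver replicate 2 (-0.35, limma adjusted p = 0.067) and with the replicate number as a block (-0.38, limma adjusted p = 0.05036). With spacer depth subtracted, its difference was -1.88, but the mean spacer depth exceeds the depth of part of this bin in cells. At position 8707, depth was 0.110, 0.0762 and 0.0758 of that mean in cells and 3.76, 4.06 and 5.27 of it in liver. Values below 0 were set to 0, so the wider gap cannot be read as a larger difference in finished rRNA.

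The edges of the mature regions showed where precursor depth joins that of finished rRNA. At the 3′ end of 18S, the last 25 nt stood at 8.08%, 9.02% and 8.63% of mean 18S depth in cells and at 1.11%, 1.21% and 1.13% in liver. The first 25 nt of ITS1 behind them stood at 1.14%, 1.71% and 1.47% in cells and 0.0703%, 0.0831% and 0.0794% in liver. The step at this end was thus 6.94, 7.31 and 7.17 percentage points in cells and 1.04, 1.13 and 1.05 in liver, so the depth of the last 25 nt in cells exceeded that in liver by more than the depth of the adjoining ITS1. At the 5′ end of 18S the same step was 7.75, 6.72 and 8.04 percentage points in cells and 6.85, 6.66 and 7.10 in liver, and the groups overlap.

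The first bases of 28S were deeper in cells too. The first 25 nt stood at 296%, 314% and 299% of mean 28S depth in cells and at 194%, 174% and 186% in liver, and nt 26 to 50 at 390% to 406% and 237% to 266%. The last 25 nt of ITS2 before them stood at 13.9%, 19.3% and 16.7% in cells and 0.860%, 0.924% and 0.692% in liver, less than the gap in the first 25 nt of 28S. At the 3′ end of 28S, the largest fall lay after position 12832 in each cell library and after 12837 in each liver library. At the end of 5.8S it lay after 7017 in each cell library and after 7030 in each liver library. These falls were measured on log2 depth, and whether the depth outside the edge moves them was not tested. No test was made of the edge windows, which were set after the profiles were seen.

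**Figure D5:**
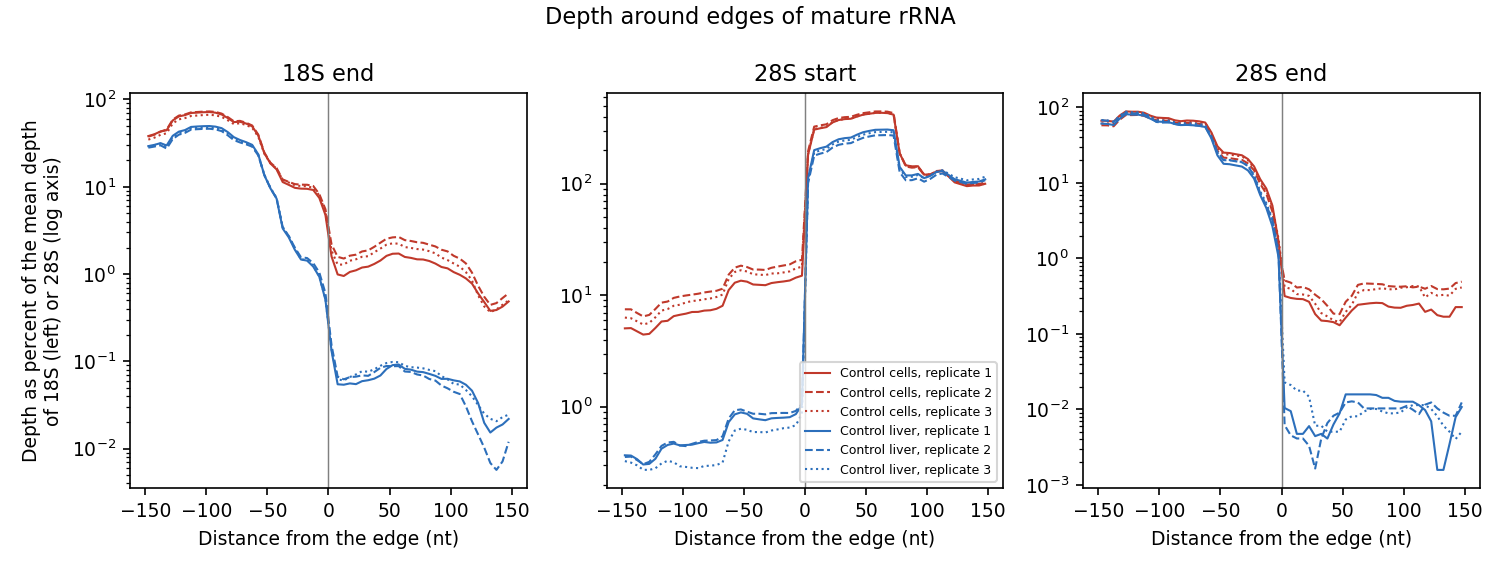
Depth around 3 edges of mature rRNA in 5-nt windows, as percent of the mean depth of 18S (left) or 28S (middle and right; log axes), against distance from the edge in nt, with 1 line per library. Inside the end of 18S the cell libraries (red) hold 8.08% to 9.02% over the last 25 nt and the liver libraries (blue) 1.11% to 1.21%.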

How the data were processed

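rRNA was sequenced from libraries made with a Clontech pico kit without its ZapR step, per the labels' protocols. The authors deposited a coverage signal: the whole number of reads over each position of 1 reference, with no scaling. The submitters' processing notes name BWA 0.7.12 and SAMtools 1.3. Not given in the sources used here are options, reference, read length and the handling of multiply mapped reads, though rRNA genes are repeated. Columns were matched to samples by the code in the title; 0 columns were unmatched. The 59 empty cells of control columns, at positions 13349 and beyond, were read as 0. Neighbouring positions share reads, so no counting interval is given. No pair of columns was identical.

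Edges were placed on log2(depth + 1) averaged over the 6 control libraries: the step was the mean of 20 nt to the right minus that of 20 nt to the left, a rise had to keep over 0.5 of its size after 100 nt, and the 3 largest opened the mature regions. Ratios of mean depths were tested with exact permutation tests over 20 assignments and with limma 3.58.1 (R 4.3.3). Bins were fitted with limma (lmFit, eBayes with trend) on log2(scaled depth + 1), at a Benjamini-Hochberg adjusted p of 0.05, after leaving out bins under 10 in both groups. Differences are cells minus liver. Named bins are the 5 largest called in each direction per fit and kind of region. Ratio values carry the SE of the difference of means, bins limma's. The code was tested on simulated data. The comparison, regions and ratios were chosen with earlier results of these data known.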

Additional observations from a re-analysis of the deposited data

How the results depend on the processing

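Directions of 13 of the 16 ratios held under each alternative run: median depths, 25 nt left out at each edge, spacer depth subtracted, 10 reads added, the spike left out, the replicate number as a block and each library left out. An exception was the 3′ETS over ITS2, at -0.84 with 10 reads added, which is more than each liver mean of the 3′ETS. So were the ratio of 5′ to 3′ part in ITS1, at -0.059 to 0.29 with 1 library left out, and the 5′ over the 3′ part of 28S, at 0.060 with median depths against -0.04. The 5′ over the 3′ part of 18S (-0.11, limma adjusted p = 0.091) passed with median depths (-0.31, limma adjusted p = 0.00024). Counts of bins deeper in cells and in liver follow the bin width by construction: 160 and 70 in bins of 50 nt and 40 and 19 in bins of 200 nt with summed depth, 51 and 29, and 15 and 7, with spacer depth, and 28 and 52, and 5 and 15, with mature depth. Median-of-ratios scaling gave 67 deeper in liver with summed depth and 17 deeper in cells with spacer depth. About as many bins are spacer as mature, so with summed depth it turned mature bins: 5701 to 5800 to -0.25, 6901 to 7000 to -0.49, 5601 to 5700 to -0.51, 5401 to 5500 to -0.53 and 5501 to 5600 to -0.63. With 1 library left out, mature bins deeper in cells numbered 8 to 13.

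Replicate numbers did not pair the libraries: deviations of same-numbered libraries from their group means correlated at -0.22, 0.25 and -0.25 over all bins. With the replicate block, 77 bins were deeper in cells and 30 in liver with summed depth, 26 and 14 with spacer depth, and 10 and 21 with mature depth; it ended the call of 1 named bin, at 8701 to 8800. Liver spacers were shallow, from 5.37 reads per position in the 3′ETS to 187 in ITS2, which limits what can be said of their shape. An alternative chosen after seeing the data, leaving out bins under 10 in either group, gave 72 and 36.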

Other observations

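Depth was uneven along the mature regions in a way that both groups shared. The deepest position of 18S was 5143 in 5 of 6 libraries and 5149 in cell replicate 2, and the shallowest position of 28S was 8707 in each library. In cells, 28S depth there was 60, 76 and 62 reads, or 0.110, 0.0762 and 0.0758 of the library's mean spacer depth, and in liver 308, 273 and 469 reads, or 3.76, 4.06 and 5.27 of it. In cells 1.42% to 2.42% of 28S positions were shallower than the mean spacer position, and in liver 0%.

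Of the spacer segments, only the 5′ETS after the inner step had the same lowest position in each library. In ITS1 the lowest lay at 6013 to 6020, and in the other segments it varied more. The shallowest position of the 5′ETS after the inner step was 1686 in each library, with 21, 33 and 37 reads in cells and 3, 1 and 3 in liver. The deepest position of that stretch was 3914 or 3918 in cells and, in liver, 4005, the last before the 18S start used here. The largest step into 18S lay at 4006 in each cell library but at 4004 in each liver library. By the liver step, 4005 would lie within 18S, so its depth cannot be read as a peak of the spacer. In ITS1 the deepest lay at 6682 to 6684 in cells and in liver at 6876, the last before 5.8S.

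Likeness of the spacer profiles was described by Pearson correlations of log2 depth over 20-nt windows. A cell with a liver library gave 0.79 to 0.91 in the leader (32 windows), 0.90 to 0.96 in the rest of the 5′ETS (167 windows), 0.90 to 0.97 in ITS1 (48 windows), 0.84 to 0.93 in ITS2 (53 windows) and 0.32 to 0.61 in the 3′ETS (28 windows). Within cells the lowest values in the same order were 0.95, 0.988, 0.987, 0.981 and 0.90. Within liver they were 0.91, 0.937, 0.88, 0.935 and 0.65. In the leader, ITS2 and the 3′ETS, each correlation between the groups thus lay below each within a group. The same held in 18S, 5.8S, 28S and the whole precursor, so it is not particular to these spacers. Windows share reads, the reference and its base composition, so these values carry no test.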
